A study of Homo sapiens with 6 samples.

Results

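The genes described here are 9 markers used to define or enrich breast cancer stem cells: CD24, CD44, ALDH1A1, ALDH1A3, EPCAM, PROM1, SOX9, SOX4 and BMI1. They were matched by symbol to Ensembl gene identifiers among 63241 genes, and were chosen with their NCD against DMSO differences in these same 6 libraries already known. Their differences between the groups are therefore given as a description, without a test. RNA was sequenced from MDA-MB-231 cells, a mesenchymal-like human breast cancer cell line described as lacking the oestrogen and progesterone receptors and HER2 amplification. The line carried the genotype label WT in all libraries. The DMSO group comprised 3 libraries of cells given 0.1% DMSO, the solvent, for 24 hours, and the NCD group comprised 3 libraries of cells given 5 μM NCD (nitidine chloride, a plant alkaloid) for 24 hours. All libraries thus come from a single cell line grown in culture, with no stroma or immune cells, and stem-like cells were not sorted. For NCD replicates 2 and 3 the free text names a differently numbered line, whereas the cell line field reads MDA-MB-231 in every library.

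Breast cancer stem cells are operationally defined by surface proteins and enzyme activity rather than by a single gene. The classical definition is a cell with high CD44, a hyaluronan receptor, and low CD24, a mucin-like adhesion molecule. A second definition rests on aldehyde dehydrogenase activity, to which the retinaldehyde-oxidising enzymes ALDH1A1 and ALDH1A3 contribute. EPCAM and PROM1 (CD133) are further surface markers, SOX9 and SOX4 are transcription factors of progenitor and mesenchymal programmes, and BMI1 is a Polycomb protein required for stem cell self-renewal. In unsorted cultured cells, a change in the number of marker-positive cells and a change in RNA per cell cannot be told apart.

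Library totals ranged from 18223594 to 21629653 expected counts. Levels are given as counts per 1000000 (CPM) after trimmed-mean (TMM) scaling. Levels of different markers are compared per length, as TPM, which divides counts by exon length. Overlapping and related genes are set beside a marker by counts, without regard to length. Of the 9 markers, 7 passed the filter on low counts and entered the fit over 15295 genes, whereas ALDH1A1 and PROM1 did not. A gene was called when its Benjamini-Hochberg adjusted p in edgeR's quasi-likelihood test was below 0.05 and its absolute log2 fold change was above 1. By this rule 4 markers were called, 3 higher and 1 lower, and 31.0% of all tested genes were called, 13.5% higher and 17.5% lower. The groups did not overlap for 7 markers, 5 higher and 2 lower, and did not overlap for 72.6% of all tested genes (37.2% higher, 35.3% lower). Nothing is read from these marker counts, because the choice of genes used this contrast.

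**Figure D1:**
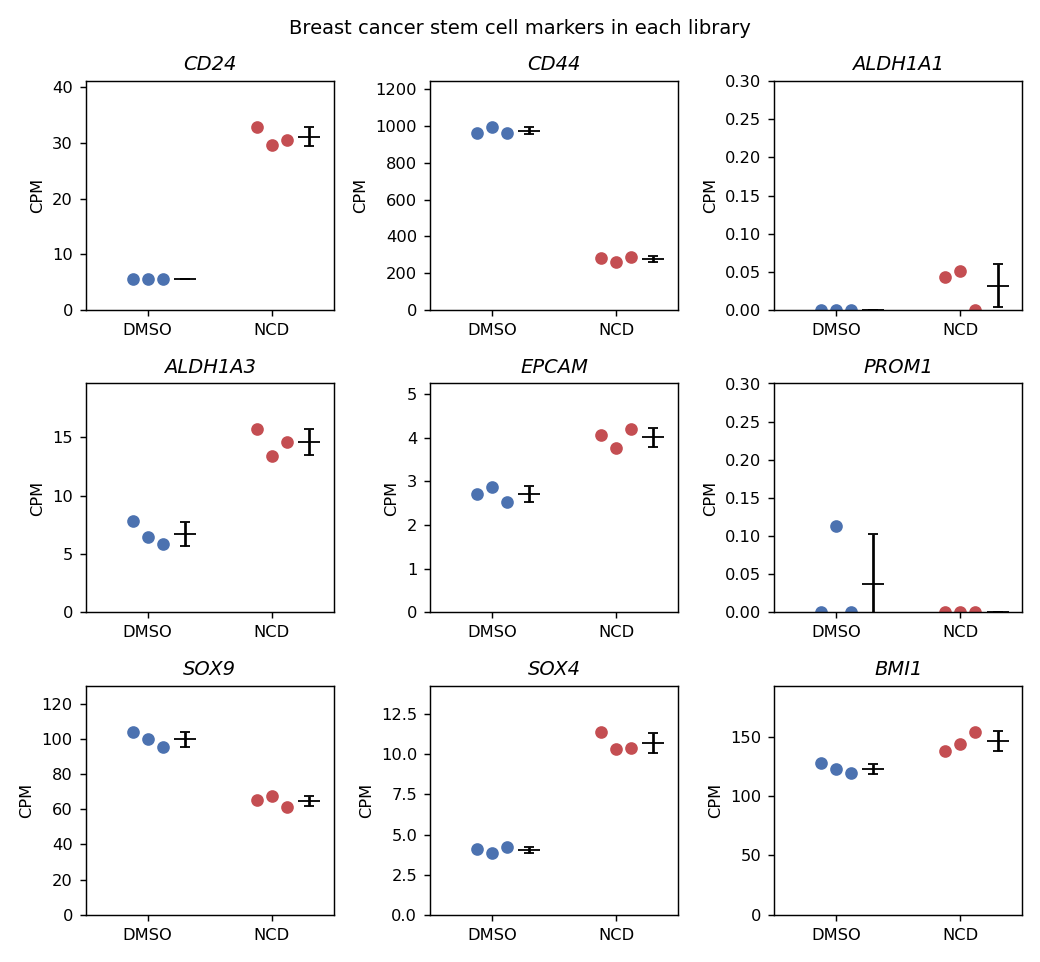
Level of each of the 9 markers in each library, in CPM (linear axes from 0). Points are libraries, and the black line and bar give the mean and SD of 3 libraries. CD24 lay near 5.55 CPM with DMSO and 31.1 CPM with NCD, CD44 moved the other way, and ALDH1A1 and PROM1 stayed at or near 0.

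Identity markers were read first. ESR1, encoding the oestrogen receptor, had between 0 and 7 counts in every library, and PGR, the progesterone receptor, had at most 3. ERBB2, encoding HER2, was expressed at 37.2 ± 1.76 CPM in the DMSO group and at 60.9 ± 2.31 CPM in the NCD group (SD, n = 3 each). VIM, the mesenchymal intermediate filament vimentin, stood at 3050 and 2630 CPM in the same order. ZEB1, a mesenchymal transcription factor, fell from 83.5 to 9.72 CPM (log2 fold change -3.10 ± 0.27 SE, adjusted p = 8.15e-06). FOXA1, a luminal transcription factor, rose from 0.172 to 1.68 CPM (log2 fold change 3.25 ± 0.59 SE, adjusted p = 0.000926). CDH1, encoding E-cadherin, had 1 count in each DMSO library and 3 or 4 with NCD, ELF5 had 0 throughout, GATA3 stood at 6.12 and 7.30 CPM, and KRT19 at 19.9 and 30.6 CPM. The 5 leukocyte markers summed to 0.12 to 0.547 CPM with DMSO and 0.512 to 1.00 CPM with NCD, with 4 of them at 3 counts or fewer. The 3 fibroblast markers summed to 1.75 to 1.99 CPM and 5.12 to 6.33 CPM. PDGFRB made up nearly all of that sum, and the defining markers DCN and LUM had at most 2 counts. The 3 endothelial markers summed to 1.09 to 1.38 CPM with DMSO and 0.567 to 1.30 CPM with NCD. The part of these shifts in the results that follow was not tested.

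The RNAs of CD24 and CD44, the pair whose surface proteins define the classical stem-like phenotype, moved in opposite directions. The libraries hold RNA levels only, so surface protein was not measured. CD24 was 5.59-fold higher and CD44 3.52-fold lower with NCD.

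CD24 (ENSG00000272398) lies on the minus strand of chromosome 6 at 106969831 to 106975627 (GRCh38). It had 5.54, 5.59 and 5.53 CPM in DMSO replicates 1 to 3 and 32.9, 29.7 and 30.5 CPM in NCD replicates 1 to 3. The 3 NCD libraries all lay far above the 3 DMSO libraries, and the lowest NCD value was 5.30 times the highest DMSO value. The group means were 5.55 ± 0.0355 CPM and 31.1 ± 1.70 CPM (SD, n = 3 each), giving a log2 fold change of 2.48 ± 0.09 (SE). Behind these levels stood 92, 99 and 101 counts in the controls, and 755, 574 and 656 counts after NCD. The DMSO values agreed more closely (coefficient of variation 0.639%) than counting error alone would give at that depth (10.1%), so their SD understates the uncertainty. The processed CD24 pseudogenes CD24P1, CD24P2, CD24P4 and CD24P5 had 0 counts in all 6 libraries.

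The bases before the CD24 start are shown because CD24 had the largest fold change among the markers, and those before BMI1 because it had the smallest. RefSeq gave 3 starts for CD24 and 2 for BMI1. Both sequences are the 250 bases upstream of the first listed start (GRCh38.p14), 5′ to 3′ on the gene's own strand, and neither overlaps an annotated exon. The CD24 window is chr6:106975628-106975877 on the minus strand and the BMI1 window is chr10:22320849-22321098 on the plus strand. Capitals mark GC boxes (GGGCGG on either strand, overlapping matches included).
CD24: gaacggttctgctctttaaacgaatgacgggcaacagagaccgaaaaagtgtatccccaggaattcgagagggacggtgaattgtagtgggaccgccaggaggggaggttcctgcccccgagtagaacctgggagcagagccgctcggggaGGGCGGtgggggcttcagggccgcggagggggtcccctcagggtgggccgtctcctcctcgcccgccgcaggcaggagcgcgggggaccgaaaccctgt
BMI1: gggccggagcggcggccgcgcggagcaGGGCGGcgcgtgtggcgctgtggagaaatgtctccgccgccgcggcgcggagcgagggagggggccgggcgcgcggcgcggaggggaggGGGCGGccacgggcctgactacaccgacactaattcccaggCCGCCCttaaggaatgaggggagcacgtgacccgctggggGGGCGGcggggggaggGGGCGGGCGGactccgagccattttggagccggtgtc
The CD24 window held 1 GC box and the BMI1 window 6, and 42.6% of 35116 promoter windows of this length held at least 1. CCAAT boxes (CCAAT, either strand), held by 32.0% of windows, were found in neither of these. Neither printed window held TATAAA (10.7% of windows), TGANTCA (the AP-1 site, 6.57%), CACCTG (an E-box, 17.5%) or TTCNNNGAA (a STAT-type site, 6.57%). The GC content was 65.6% for CD24 and 76.8% for BMI1, against a median of 58.0% over all windows. RefSeq entries were matched for 7 of the 9 markers. The upstream windows of CD44, ALDH1A3 and SOX4 lay within exons of longer annotated transcripts and are not printed. The SOX4 window held 4 CCAAT boxes and no GC box, the ALDH1A3 window 6 GC boxes and 1 CCAAT box, and the CD44 window 2 GC boxes. A further CD24 window, at the third start and also free of exons, held 1 GC box, 1 CCAAT box and 1 CACCTG match, so the absences above hold for the printed windows alone. These matches describe letters only.

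CD44 (ENSG00000026508) lies on the plus strand of chromosome 11 at 35138870 to 35232402. Its level was 965, 996 and 965 CPM with DMSO, and 282, 260 and 288 CPM with NCD. All 3 NCD libraries were low, and the lowest DMSO value was 3.35 times the highest NCD value. The means were 975 ± 18.1 CPM and 277 ± 14.6 CPM (SD, n = 3 each), a log2 fold change of -1.82 ± 0.06 (SE). CD44 remained an abundant transcript with NCD, at 86.4 to 102 TPM against 276 to 315 TPM with DMSO. The overlapping antisense gene CD44-AS1 had at most 5 counts in any library and the divergent CD44-DT at most 13, against at least 5039 for CD44.

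Because CD44 was lower and CD24 higher, their ratio within a library, which does not depend on how libraries are scaled, moved further than either gene. The CD44 to CD24 ratio of length-scaled levels was 53.9, 55.1 and 54.0 with DMSO, and 2.65, 2.72 and 2.92 with NCD. The groups were widely separated, and the lowest DMSO ratio was 18.5 times the highest NCD ratio. The mean ratio was 54.4 ± 0.665 with DMSO and 2.76 ± 0.142 with NCD (SD, n = 3 each), a 19.7-fold difference. CD44 transcripts thus still outnumbered CD24 transcripts per length in every NCD library. The DMSO ratios rest on 92 to 101 CD24 counts per library, with a counting error of 10.1%, so their SD understates the uncertainty. The size of the ratio, but not its fold difference, depended on the length used. With the longest transcript of each gene in place of all exons it was 77.0 and 3.91.

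**Figure D2:**
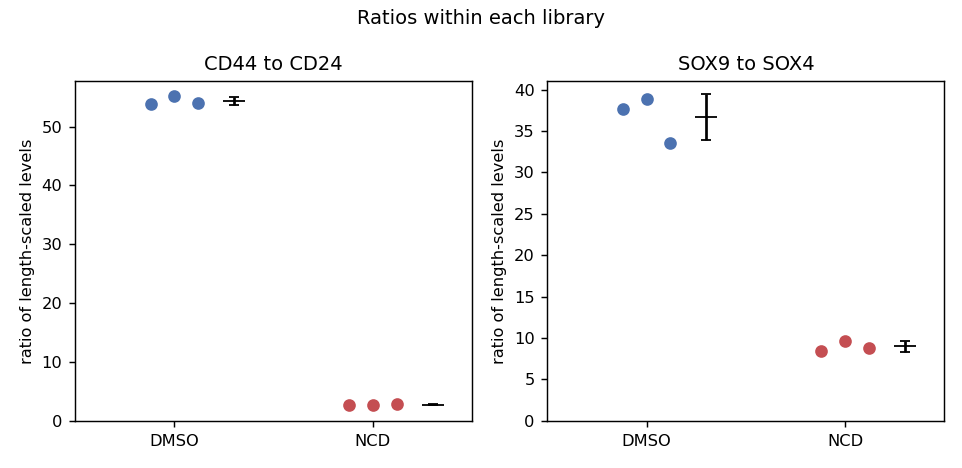
Ratio of CD44 to CD24 (left) and of SOX9 to SOX4 (right) in each library, from levels divided by the exon length of each gene (no unit, axes from 0). Points are libraries, and the black line and bar give the mean and SD of 3 libraries. The CD44 to CD24 ratio lay between 53.9 and 55.1 with DMSO and between 2.65 and 2.92 with NCD.

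Of the aldehyde dehydrogenases behind the enzymatic definition, ALDH1A3 was expressed and ALDH1A1 was essentially undetected. ALDH1A3 (ENSG00000184254, chromosome 15, 100877714 to 100916626, plus strand) had 7.88, 6.44 and 5.86 CPM with DMSO and 15.7, 13.4 and 14.6 CPM with NCD. The groups did not overlap, and DMSO replicate 1 was the highest of the controls. The means were 6.73 ± 1.04 and 14.6 ± 1.14 CPM (SD, n = 3 each), a log2 fold change of 1.12 ± 0.13 (SE), or 2.17-fold higher with NCD. Without DMSO replicate 3 the log2 fold change was 1.00 and no longer past the fold threshold. The overlapping ALDH1A3-AS1, on the opposite strand, had 7.94 to 28.0 counts with DMSO and 19.3 to 30.5 with NCD, against 107 to 131 and 260 to 360 for ALDH1A3. Whether counting used strand is not given in the sources used here, so reads of the gene and of its antisense partner may not have been separated. With both counted together the log2 fold change was 1.03.

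ALDH1A1 (ENSG00000165092, chromosome 9, 72900662 to 73080442, minus strand) had 0 counts in all 3 DMSO libraries, whereas NCD replicates 1 to 3 held 1, 1 and 0 counts. A count of 0 allowed up to 3 counts, or 0.131 to 0.181 CPM by library, counting error only. All 6 values lay under that floor, so no difference was detectable at this depth.

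PROM1 (ENSG00000007062, chromosome 4, 15963076 to 16084378, minus strand), the CD133 surface glycoprotein, had 0, 2 and 0 counts in the controls and 0 in each NCD library. These values also lay under the floor. Neither PROM1 nor ALDH1A1 was called when no filter on low counts was used.

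EPCAM (ENSG00000119888, chromosome 2, 47345158 to 47387601, plus strand), the epithelial cell adhesion molecule, was a weakly expressed gene that was 1.48-fold higher with NCD. It had 2.71, 2.88 and 2.52 CPM with DMSO and 4.06, 3.77 and 4.19 CPM with NCD. The groups did not overlap, although each library held only 45 to 93 EPCAM counts. The means were 2.70 ± 0.182 and 4.01 ± 0.214 CPM (SD, n = 3 each), and the log2 fold change of 0.57 ± 0.16 (SE) did not reach the fold threshold. Counting error alone amounts to 14.5% for the mean DMSO count of 47.3.

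The SOX genes moved apart, with SOX4 higher and SOX9 lower. SOX4 (ENSG00000124766, chromosome 6, 21592768 to 21598619, plus strand), a transcription factor of mesenchymal and progenitor states, had 4.09, 3.84 and 4.22 CPM with DMSO and 11.4, 10.3 and 10.4 CPM with NCD. The NCD libraries were all high, without overlap. The means were 4.05 ± 0.190 and 10.7 ± 0.595 CPM (SD, n = 3 each), a log2 fold change of 1.40 ± 0.12 (SE), or 2.64-fold higher. The coefficient of variation with DMSO (4.69%) was below the counting error at that depth (11.9%), so the DMSO SD understates the uncertainty.

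SOX9 (ENSG00000125398, chromosome 17, 72121020 to 72126420, plus strand), a factor of mammary progenitors, had 104, 100 and 95.1 CPM with DMSO and 65.0, 67.4 and 61.5 CPM with NCD. All NCD libraries were below all DMSO libraries. The log2 fold change was -0.62 ± 0.06 (SE), short of the fold threshold. SOX9 and SOX9-AS1 overlap on opposite strands, and SOX9-AS1 had at most 27 counts against at least 1304 for SOX9. Within each library the SOX9 to SOX4 ratio per length was 37.7, 38.8 and 33.5 with DMSO and 8.49, 9.70 and 8.81 with NCD. SOX9 thus stayed the more abundant of the pair in every library, with a mean ratio of 36.7 ± 2.77 and 9.0 ± 0.625 (SD, n = 3 each).

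BMI1 (ENSG00000168283, chromosome 10, 22321211 to 22331484, plus strand) moved least. This Polycomb protein had 128, 123 and 119 CPM with DMSO and 138, 144 and 154 CPM with NCD. The NCD values lay just above the DMSO values without overlap. The means were 123 ± 4.24 and 146 ± 8.39 CPM (SD, n = 3 each), a log2 fold change of 0.24 ± 0.06 (SE), or 1.18-fold higher. Scaling by library totals gave 0.44. The read-through gene COMMD3-BMI1 shares exons with BMI1, which makes the split of reads between them uncertain. It was assigned 2.70 to 11.4 counts with DMSO and 19.6 to 38.4 with NCD, against at least 2121 for BMI1, and BMI1P1 had 0.

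The order of the markers by level per length differed between the groups. With DMSO it ran CD44 (293 TPM), BMI1 (86.4), SOX9 (76.0), CD24 (5.38), ALDH1A3 (3.48), EPCAM (3.22) and SOX4 (2.08 TPM), and of these neighbours ALDH1A3 and EPCAM overlapped between libraries. With NCD it ran BMI1 (116 TPM), CD44 (94.2), SOX9 (55.8), CD24 (34.1), ALDH1A3 (8.59), SOX4 (6.22) and EPCAM (5.42 TPM), and SOX4 and EPCAM overlapped. CD24 kept the fourth place in both groups, but its distance to SOX9 narrowed. The exchange of CD44 and BMI1 at the top depended on the length used. With the longest transcript CD44 and BMI1 stood at 121 and 106 TPM with NCD and overlapped, and EPCAM stood above SOX4.

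Gene span was examined beside these differences, since the change over all genes followed it. Tested genes with an annotated span were put into 10 groups of like size, and the median log2 fold change ran from 0.24 in the shortest group (up to 3.7 kb) through 0.43 (13.2 to 20.1 kb) to -2.09 in the longest (over 153.1 kb). CD44, at 93.5 kb the longest of the tested markers, belonged to a group with a median of -0.93, and differed from that median by -0.88. CD24, SOX4 and SOX9, at 5.8, 5.9 and 5.4 kb, belonged to a group with a median of 0.39, so that CD24 stood 2.10 above and SOX9 at -1.01 against it. BMI1, at 10.3 kb, differed from its group's median of 0.41 by -0.17. The part of gene span in the markers' values was not tested.

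**Figure D3:**
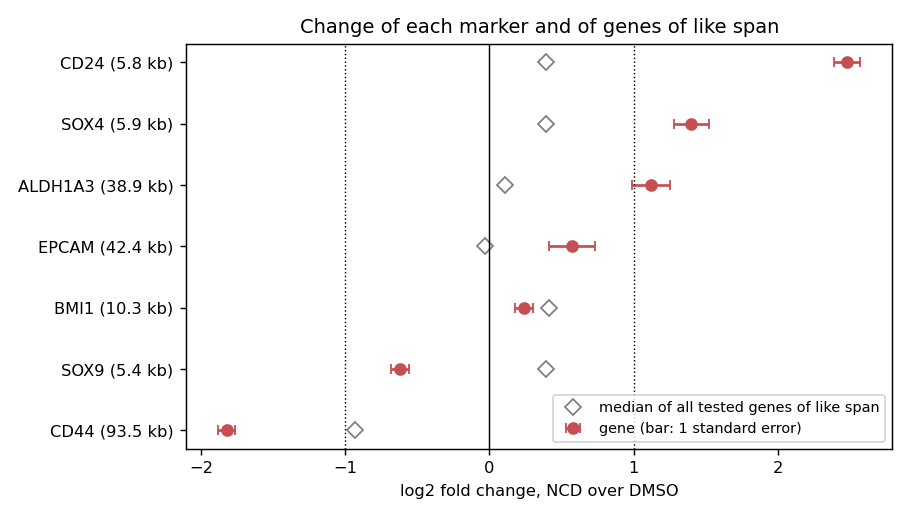
Log2 fold change of NCD over DMSO for the 7 tested markers (red points, bars 1 standard error), with the span of each gene in kb. Grey diamonds give the median of all tested genes in the same span group, and dotted lines mark the fold threshold at -1 and 1. CD24 at 2.48 and CD44 at -1.82 lie farthest from 0.

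For each called marker, the pair of genes with the closest profile over the 6 libraries was taken from 10777 genes. Closeness was the root mean square of the differences in log2 CPM, after adding 0.5 CPM and centring on the DMSO mean. The added 0.5 CPM shrinks the change of low genes such as WDR31, at 1.56 CPM with DMSO (log2 fold change 2.69). For CD24 the closest genes were WDR31 (0.0501) and OTUD1 (0.0674), and for CD44 TBC1D12 (0.0221) and SFPQ (0.0277). For ALDH1A3 they were CCNA1 (0.0493) and ING1 (0.0714), and for SOX4 FOXF2 (0.0431) and TUBB2A (0.0481).

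Genes of the families and pathways around these markers were read from the same fit, with adjusted p over all 15295 genes. Their lists were drawn up with earlier results of these data known. The labels do not say whether libraries of a group came from separate cultures, so the adjusted p-values measure only the spread between these libraries, which may be technical. Over all tested genes the median log2 fold change was 0.04, and scaling by library totals raised it by 0.20. That scaling also changed the split of all calls from 43.6% to 56.1% higher.

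The other breast stem cell markers that passed both thresholds in the fit with TMM scaling were lower with NCD, and with library totals 1 was higher and 4 lower. Without a fold threshold 2 were higher and 7 lower, and with no filter on low counts, or without NCD replicate 2, 1 was called higher and 5 lower. Of 29 listed, 14 were tested and 4 were called (28.6%), all lower, with a list median of -0.49. MELK, a kinase of progenitor and proliferating cells, fell from 165 to 31.5 CPM (log2 fold change -2.39 ± 0.06 SE, adjusted p = 1.29e-08). ITGA6 (CD49f), an integrin subunit used to sort mammary stem cells, fell from 280 to 68.9 CPM (-2.02 ± 0.09, adjusted p = 1.64e-07). PODXL, a sialomucin, fell from 479 to 122 CPM (-1.98 ± 0.06, adjusted p = 2.92e-08). The remaining called gene was ITGB1, a partner of ITGA6, at -1.29, named after its value was seen.

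Of the other aldehyde dehydrogenases few passed the fold threshold, whereas 8 passed the adjusted p alone, 5 higher and 3 lower. Of 17 listed, 13 were tested and 2 were called (15.4%), both higher, with a median of 0.02. ALDH3B1, which oxidises lipid-derived aldehydes, rose from 13.0 to 27.7 CPM (1.09 ± 0.10, adjusted p = 1.12e-05). The other was the mitochondrial folate enzyme ALDH1L2 at 1.84, with a mean of 0.764 CPM with NCD, named after its value was seen.

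The retinoic acid pathway uses the product of ALDH1A3. Of 23 listed genes 13 were tested and 7 were called (53.8%), 6 higher and 1 lower, with a median of 0.81. CRABP2, a carrier of retinoic acid to the nucleus, rose from 3.29 to 11.6 CPM (1.82 ± 0.13, adjusted p = 2.26e-06). CYP26B1, which degrades retinoic acid, rose from 10.8 to 29.5 CPM (1.44 ± 0.09, adjusted p = 1.18e-06). TGM2, a transglutaminase induced by retinoic acid in many cells, fell from 475 to 211 CPM (-1.17 ± 0.06, adjusted p = 3.95e-07). The called genes RDH10, which makes retinaldehyde, at 2.68 and the receptor gene RARG at 1.05 were named after their values were seen. The remaining called genes, DHRS3 and RARRES1, had means of only 1.24 and 0.636 CPM with NCD and were named after their values were seen. With library totals the split was 7 higher and 0 lower. With at least 10 counts in every library 11 were tested and 5 were called, 4 higher and 1 lower, with a median of 0.48. With DESeq2 in place of edgeR 5 were higher and 1 lower.

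Few of the other SOX genes were expressed. Of 17 listed, 4 were tested and 1, SOX21, was called higher at a mean of 0.790 CPM with NCD (1.75 ± 0.43, adjusted p = 0.00559, named after its value was seen).

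The Polycomb repressive complex 1, in which BMI1 is a core subunit, was expressed as a whole and mostly did not pass the call rule. All 21 listed genes were tested and 3 were called (14.3%), 2 higher and 1 lower, with a median of -0.05 that became 0.15 with library totals. SCMH1, a Polycomb-associated protein, fell from 22.3 to 2.37 CPM (-3.23 ± 0.10, adjusted p = 2.92e-08). L3MBTL2, a subunit of a variant complex, rose from 18.8 to 38.0 CPM (1.01 ± 0.08, adjusted p = 3.26e-06). With library totals 5 were higher and 1 lower. With DESeq2 in place of edgeR, or with at least 10 counts in every library, 1 was higher and 1 lower. The same split was found without DMSO replicate 1, DMSO replicate 3 or NCD replicate 3. L3MBTL2, at 1.01, lay close to the fold threshold.

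Partners and processing enzymes of the surface markers changed in both directions. Of 24 listed genes 18 were tested and 7 were called (38.9%), 3 higher and 4 lower, with a median of -0.05. With library totals 6 were called, 3 higher and 3 lower, with a median of 0.15. ADAM10, a protease that sheds CD44, fell from 213 to 31.6 CPM (-2.75 ± 0.10, adjusted p = 6.12e-08). MSN (moesin), which links CD44 to actin, fell from 752 to 213 CPM (-1.82 ± 0.06, adjusted p = 3.11e-08), and MMP14, which cleaves CD44 at the cell surface, fell from 404 to 195 CPM (-1.05 ± 0.06, adjusted p = 3.61e-07). The remaining called genes were named after their values were seen. They were the hyaluronan synthases HAS2 at -3.06 and HAS3 at 1.97, the splicing regulator ESRP1 at 1.85 and the tight junction gene CLDN1 at 1.10. HAS3 and ESRP1 were weakly expressed, with means of 1.39 and 0.979 CPM with DMSO and 5.46 and 3.51 CPM with NCD.

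Among the signalling pathways used by stem cells, the Notch list had called genes of both directions. Of 29 listed, 27 were tested and 14 were called (51.9%), 9 higher and 5 lower, with a median of 0.48. With at least 10 counts in every library, 20 were tested and 8 were called, 4 higher and 4 lower. MAML2, a coactivator, fell from 20.5 to 1.05 CPM (-4.28 ± 0.18, adjusted p = 1.16e-07). NUMB, an inhibitor of Notch, fell from 111 to 28.9 CPM (-1.94 ± 0.08, adjusted p = 8.48e-08), and the receptor gene NOTCH2 from 168 to 47.9 CPM (-1.81 ± 0.07, adjusted p = 5.88e-08). The remaining called genes that were lower were RBPJ, from 308 to 63.1 CPM (-2.29), and MAML3 at -3.14. Called genes that were higher included the Notch targets HEY1 at 4.09, HEY2 at 3.50, HEYL at 1.91 and HES1 at 1.20. The ligand gene DLL4, at 3.57, was also called higher. The genes from RBPJ to DLL4 were named after their values were seen. HEY1, HEY2 and DLL4 were at most 0.438 CPM in any DMSO library.

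The Wnt list was divided evenly. Of 49 listed genes 37 were tested and 14 were called (37.8%), 7 higher and 7 lower, with a median of 0.07. GSK3B, a kinase of the β-catenin destruction complex, fell from 76.4 to 8.91 CPM (-3.10 ± 0.12, adjusted p = 5.72e-08). LRP5, a Wnt co-receptor, fell from 59.6 to 12.8 CPM (-2.22 ± 0.09, adjusted p = 1.00e-07). DKK3, a secreted member of the Dickkopf family, rose from 0.966 to 15.8 CPM (4.02 ± 0.18, adjusted p = 1.67e-07). With library totals 11 were higher and 7 lower.

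The Hedgehog list had 10 of 17 genes tested and 3 called (30.0%), all lower, with a median of -0.43, whereas with library totals 2 were higher and 3 lower. GLI3, a transcription factor, fell from 22.2 to 6.06 CPM (-1.87 ± 0.12, adjusted p = 1.10e-06). DISP1, which releases Hedgehog ligands, fell from 13.1 to 4.85 CPM (-1.43 ± 0.13, adjusted p = 1.18e-05). The remaining gene was HHAT, the ligand acyltransferase, at -3.94, named after its value was seen. Between 3 and 6 genes were called when a library was left out, with 5 without DMSO replicate 2 and 6 without NCD replicate 2.

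The shares called are to be read against the 31.0% of all tested genes. The called genes that fell in these lists were often long. Spans were 366.6 kb for MAML2, 273.1 kb for GSK3B, 215.0 kb for SCMH1 and 161.2 kb for ADAM10. Others that fell were shorter, with 58.0 kb for PODXL, 39.2 kb for TGM2, 29.3 kb for HAS2 and 12.5 kb for MMP14. The part of span in these values was not tested.

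**Figure D4:**
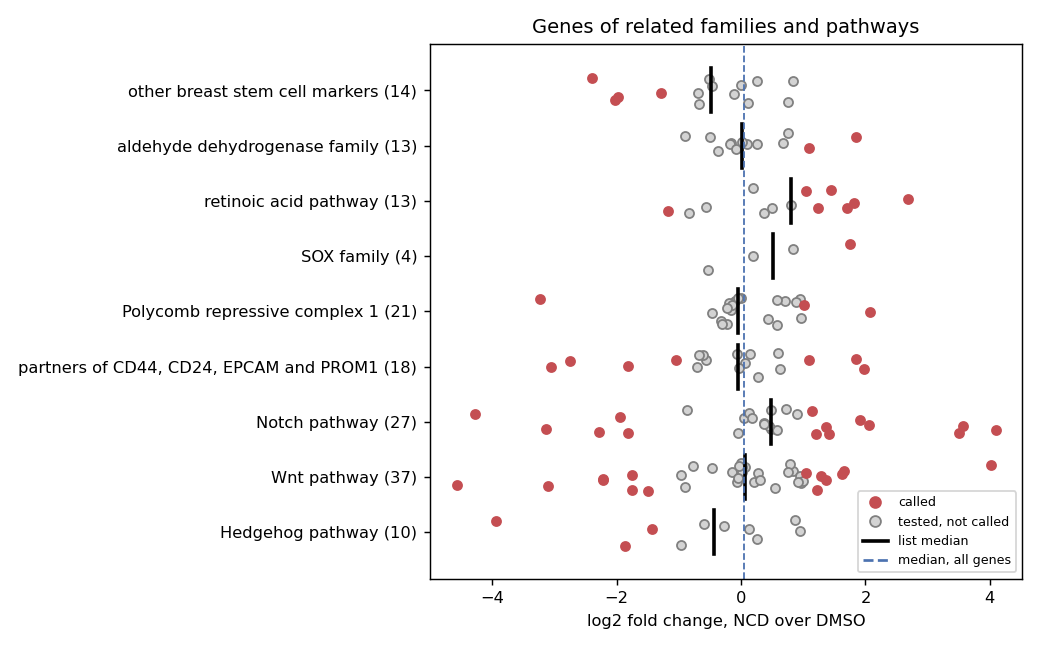
Log2 fold change of NCD over DMSO for tested genes of 9 lists (number tested in brackets). Red points are called genes, grey points tested genes that were not called, black bars the list medians and the dashed line the median of all tested genes at 0.04. Called genes lie on both sides of 0 in the Notch and Wnt lists and, under this TMM scaling, only below it in the Hedgehog list and the other stem cell markers, where library totals gave 2 and 1 called higher.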

How the data were processed

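Total RNA from 6 libraries was sequenced. Per the submitters' processing notes, reads were handled with HISAT2 and RSEM on GRCh38 (hg38), versions and annotation not given in the sources used here. The authors deposited expected counts per Ensembl gene for each library, without normalization. The markers, gene lists and rules for naming genes were chosen with earlier results of these data known, and some genes of the rule and lists are not reported here.

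Expected counts were rounded and fitted with edgeR 4.0.16 (R 4.3.3, quasi-likelihood test, filterByExpr, TMM scaling, no covariate) over 15295 genes. The TMM factors were 0.9117 to 0.9495 in the DMSO libraries and 1.059 to 1.092 in the NCD libraries, without overlap. Standard errors were taken from the fold change and its F statistic. A gene was called at adjusted p below 0.05 and absolute log2 fold change above 1. DESeq2, which the study used, was run (1.42.0) as an alternative beside limma-voom 3.58.1. The same step was tested on simulated data. TPM used GENCODE 29 exon lengths, and 42338 of 63241 identifiers had a symbol. In each file 25 lines that held no gene identifier were skipped. In each list up to 3 called genes with the smallest p, a mean of at least 5 CPM and no overlap between groups were named. Further names are marked in the text. Promoter bases came from RefSeq (GRCh38.p14). Floors of 3 counts cover counting error only. Replicates of a group differed by 2.09 to 16.9 times sampling noise (chi-square per degree of freedom), so each library was counted as 1 sample. The pairs without DMSO replicate 2 (4.42) and without NCD replicate 3 (2.09) were the closest of their groups. These values do not show whether libraries came from separate cultures.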

Additional observations from a re-analysis of the deposited data

How the results depend on the processing

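The log2 fold changes of the 7 tested markers kept their direction and their side of the thresholds in 104 of 105 recomputations, and none reversed. The exception was ALDH1A3 without DMSO replicate 3 (1.00, with 3 markers called). Apart from leaving out a library and from adding overlapping genes, the alternatives gave ranges as follows. CD24 ranged from 2.46 to 2.68, CD44 from -1.84 to -1.62, ALDH1A3 from 1.10 to 1.32, EPCAM from 0.55 to 0.77, SOX9 from -0.65 to -0.43, SOX4 from 1.38 to 1.60 and BMI1 from 0.22 to 0.44, and the outer values away from 0 for the higher genes came from library totals. Adding the counts of overlapping genes, an alternative chosen after seeing the data, moved ALDH1A3 to 1.03 and left 4 markers called.

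Without a fold threshold 10602 genes were called (5393 higher, 5209 lower), with 7 markers, 9 other stem cell markers, 8 aldehyde dehydrogenases, 11 retinoic acid genes, 3 SOX genes, 14 Polycomb genes, 12 partners, 23 Notch, 26 Wnt and 6 Hedgehog genes. With library totals 2 SOX, 6 Polycomb and 5 Hedgehog genes were called. With no filter on low counts 2 SOX genes were called. With at least 10 counts in every library 1 aldehyde dehydrogenase, 0 SOX and 8 Notch genes (4 higher, 4 lower) were called, since fewer genes were tested. All genes called then numbered 3683. Leaving out a library gave 4653 to 5049 called genes, 3 to 4 markers, 4 to 6 other stem cell markers, 1 to 2 SOX genes (2 without DMSO replicate 1 or NCD replicate 2) and 3 to 6 Hedgehog genes. Retinoic acid genes called then numbered 6 to 7 and Polycomb genes 2 to 3. The CD44 to CD24 ratio was 176 and 8.92 from counts alone, and 77.0 and 3.91 with the longest transcript. Replicate numbers did not pair the libraries (correlations of 0.314, -0.27 and 0.025), and with the replicate block 4723 genes and 4 markers were called. The cause of these changes was not tested where not given. Depth limits ALDH1A1 and PROM1, which lay under the floor, and EPCAM, CD24 and SOX4 in the DMSO libraries, at about 100 counts or fewer.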
